A study of Mus musculus with 19 samples.

Results

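The transcripts of 8 lipase genes were followed across 10 mouse liver tumours: Pnliprp1, Pnlip, Lpl, Lipc, Lipg, Lipe, Mgll and Pnpla2. The 8 were taken by name from a table of 39179 gene identifiers, and all 8 were present in it. Pnliprp1 was chosen by the SD of its log2 level between these same tumours, which is among the largest of all genes. Its spread is therefore given as a description without a test. The other 7 were taken as enzymes that cut neutral lipids or lipoproteins. Levels below are of RNA, and lipase activity was not measured for any of the 8.

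The study asked how far end-stage liver tumours differ when each grows from a single hepatocyte with the same engineered drivers. The labels list 13 tumours, 3 control livers and 3 high AAV control livers, and tumours 04 to 13 were analysed here, matched to the columns of the count table by number. Neither kind of control liver was used here, and every comparison below is between tumours. The tumour mice were male, on a mixed background, heterozygous for Ctnnb1tm1Mmt, an allele whose recombination stabilises β-catenin, and homozygous for Gt(ROSA)26Sortm1(MYC)Djmy, which expresses human MYC after recombination. All received AAV8.TBG.PI.Cre.rBG, an adeno-associated virus with Cre recombinase under the hepatocyte promoter TBG, at 640000000 genome copies per mouse. Each library is RNA of a whole piece of frozen tumour, so it also holds blood, vessel and stromal cells. The column names carry 5 tags, RMH4_5b (tumour 04), RMH4_5c (05 and 06), RMH18_1d (07 and 08), RMH35_1b (09 and 10) and RMH35_1c (11 to 13). What a tag stands for is not given in the labels, and tumours with the same tag may come from the same mouse.

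Lipases release fatty acids from glycerides. Pancreatic lipase, encoded by Pnlip, digests dietary fat in the gut with the help of colipase, and Pnliprp1 and Pnliprp2 encode its close relatives from the same family. Lipoprotein lipase, hepatic lipase and endothelial lipase, encoded by Lpl, Lipc and Lipg, belong to that family too and act on circulating lipoproteins at vessel walls. Inside cells, stored triglyceride is broken down in sequence by adipose triglyceride lipase (Pnpla2), hormone-sensitive lipase (Lipe) and monoglyceride lipase (Mgll). Healthy liver is known for Lipc, and exocrine pancreas for Pnlip and its relatives.

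Total gene counts ranged from 11687034 to 36964427 per tumour, with a median of 16664597. Levels are CPM, counts per 1000000 counts of the library, after TMM scaling, which corrects for library composition, and 3 counts correspond to 0.0767 to 0.277 CPM. All 8 hepatocyte markers that were listed passed the filter on low counts, and Alb, which encodes albumin, was at 13016 CPM or more in every tumour. Of these markers 3 had an SD of log2 CPM above 1. Serpina1c ranged from 0.893 to 121 CPM and Cps1 from 4.53 to 218 CPM, both lowest in tumour 05 and highest in tumour 12. Fgb ranged from 1137 CPM in tumour 10 to 12830 CPM in tumour 06. Rpph1, an RNA without a poly(A) tail that a poly(A) library should hold little of, was at 30.0 to 51.8 CPM in tumours 05, 06 and 07, at 4.28 CPM in tumour 04 and at 0.756 to 3.03 CPM in the other 6. For this reason the main counts were also made without tumours 04 to 07, a choice made after seeing the data.

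Pnliprp1 lies in a row of related genes on chromosome 19. On GRCm38.p6 it spans chr19:58728887-58744169, with Pnlip starting 58.5 kb before it and Pnliprp2 30.8 kb after it. The 250 bases before the start of each gene are printed here, because these neighbours of 1 family had very unequal levels. The sequences are from RefSeq on GRCm38.p6, where 6 of the 8 lipases have one, and Lpl and Lipg do not. All 3 read 5′ to 3′ on the plus strand, in the order Pnliprp1 at chr19:58728637-58728886, Pnlip at chr19:58670115-58670364 and Pnliprp2 at chr19:58759473-58759722. Capitals mark matches to the motifs searched.
Pnliprp1: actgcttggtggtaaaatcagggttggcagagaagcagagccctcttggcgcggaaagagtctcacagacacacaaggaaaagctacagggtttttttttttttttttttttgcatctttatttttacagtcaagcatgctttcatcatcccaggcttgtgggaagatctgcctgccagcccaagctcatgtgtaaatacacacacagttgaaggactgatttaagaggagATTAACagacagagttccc
Pnlip: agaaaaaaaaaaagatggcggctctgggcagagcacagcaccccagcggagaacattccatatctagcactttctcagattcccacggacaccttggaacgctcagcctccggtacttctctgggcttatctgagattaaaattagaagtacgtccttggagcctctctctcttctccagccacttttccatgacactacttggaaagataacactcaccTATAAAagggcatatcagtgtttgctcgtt
Pnliprp2: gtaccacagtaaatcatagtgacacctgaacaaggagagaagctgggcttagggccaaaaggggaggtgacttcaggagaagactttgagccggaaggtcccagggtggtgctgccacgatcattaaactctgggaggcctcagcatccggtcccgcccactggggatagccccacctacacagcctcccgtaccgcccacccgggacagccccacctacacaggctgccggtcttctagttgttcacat
Each motif was searched on both strands. The TATA box was searched as TATAAA, the core bound by HNF1 as GTTAAT and the element bound by HNF4 as CAAAGTCCA. TCF/LEF factors, the partners of β-catenin, were searched as CTTTGAT and, in a variant form, as CTTTGTT. Pnliprp1 had 1 match, to GTTAAT on the minus strand, whose first printed base is 19 bases before the start. Pnlip had 1 match, to TATAAA, 30 bases before its start, and Pnliprp2 had none. Among 32851 upstream regions of the same length in the RefSeq table, 12.4% held the TATA box, 6.43% the HNF1 core, 0.384% the HNF4 element, 3.21% the main TCF/LEF form and 5.03% its variant. The motifs do not overlap in the letters shown.

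Pnliprp1 (ENSMUSG00000042179) was high in some tumours and nearly silent in others. It was at 5.97 CPM in tumour 04, 3.96 in 05, 13.7 in 06, 627 in 07, 84.6 in 08, 87.0 in 09, 230 in 10, 72.1 in 11, 1.15 in 12 and 97.4 CPM in 13. Tumour 12 had the lowest level, from 35 counts, although its library was among the deepest, and tumour 07 had the highest, from 6796 counts in the shallowest library. The mean was 122 CPM ± 190 (SD, n = 10), and the highest level was 545-fold above the lowest. Without tumour 07 the mean was 66.2 CPM.

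Tumours that shared a tag differed in Pnliprp1 by 1.35-fold to 84.6-fold. Among the 3 tumours of RMH35_1c, tumour 13 was 84.6-fold above tumour 12 and 1.35-fold above tumour 11. Tumour 07 was 7.42-fold above tumour 08 within RMH18_1d, tumour 06 was 3.45-fold above 05, and tumour 10 was 2.64-fold above 09. The low tumours were thus all 3 of the RMH4 tags and a single tumour of RMH35_1c. Over 6 pairs of tumours with the same tag the median log2 difference was 2.33, and over the 39 other pairs it was 3.12. No test of Pnliprp1 between tags is given, since the gene was chosen for its spread.

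**Figure D1:**
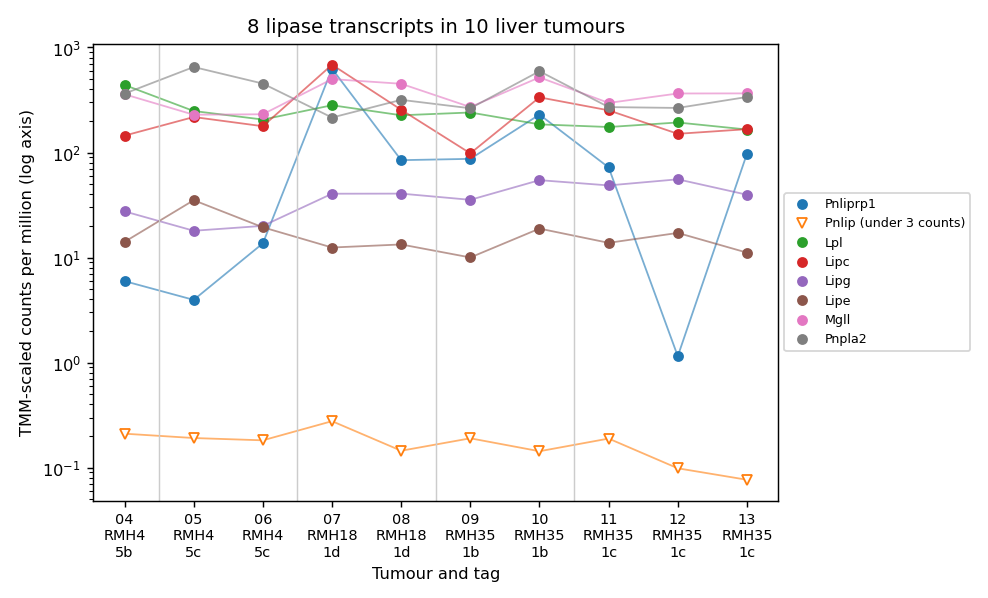
Level of each lipase (y, TMM-scaled CPM, log axis) in each tumour (x, with its tag, tags divided by grey lines). Points are single tumours, thin lines only join points of the same gene, and open triangles stand for Pnlip, which had fewer than 3 counts in every tumour and is drawn at the level of 3 counts. Pnliprp1 lies between 1.15 CPM (tumour 12) and 627 CPM (tumour 07), while the other 6 detected lipases stay within a 7-fold range or less.

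Pnlip (ENSMUSG00000046008, chr19:58670365-58681799), the next gene of its family on the chromosome, was close to absent. It had 4 counts in all, 1 in tumour 05, 1 in 11 and 2 in 12, and none in the other 7 tumours. Each of these values is under the level that 3 counts stand for, so no fold is given. Pnliprp2, on the other side, was at 21.7 CPM in tumour 09 and 14.9 CPM in tumour 10, the pair of tag RMH35_1b, and between 0.0607 and 1.26 CPM in the other 8. Pnliprp2 is no member of the 8 and was singled out after its values were seen, and it did not pass the filter on low counts. Tumour 07, the highest for Pnliprp1, held Pnliprp2 at 0.462 CPM, while tumour 10 was high in both genes and tumours 06 and 12 were low in both. Their r on log2 CPM was 0.55 over the 10 tumours, given as a description.

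Of the remaining protein-coding genes of the RefSeq annotation within 250 kb of Pnliprp1, only Shtn1 passed the filter on low counts. Ccdc172 had no count in any tumour, Eno4 stayed at 0.319 CPM or less and Hspa12a at 3.39 CPM or less. Shtn1 was at 36.0 to 70.6 CPM, lowest in tumour 07. Its SD was 0.30 log2 units, against 2.83 for Pnliprp1. The r of Shtn1 with Pnliprp1 on log2 CPM was -0.78, given as a description.

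Other genes of pancreatic acinar cells were examined, since Pnliprp1 is known from that cell type. Of 26 listed markers 6 had no count in any tumour, among them Prss1, Cpb1, Amy2a5 and Ptf1a, and 19 stayed under 1 CPM everywhere. Clps, which encodes colipase, reached 0.317 CPM at most, and Cel, the bile salt-dependent lipase, had 1 count in all. Only Cela1 (28.7 to 207 CPM), Bhlha15 (1.87 to 48.7 CPM) and Pnliprp2 passed 10 CPM in any tumour. The summed level of the list, most of which was Cela1, lay between 32.9 CPM (tumour 12) and 217 CPM (tumour 11). Its lowest tumour was also that of Pnliprp1, and its highest was not. Adipocytes are another cell rich in lipases. Of the 8 adipocyte markers listed, Lep had no count, Adipoq, Retn and Plin1 stayed at 0.191 CPM or less, and Cfd, with a median of 0.210 CPM, did not pass the filter on low counts. The other 3 passed it, with Cidec at 50.9 to 291 CPM, Pck1, also a hepatocyte gene, at 16.1 to 394 CPM and Fabp4 at 5.95 to 98.9 CPM, and the summed level of the list was 174 to 608 CPM.

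**Figure D2:**
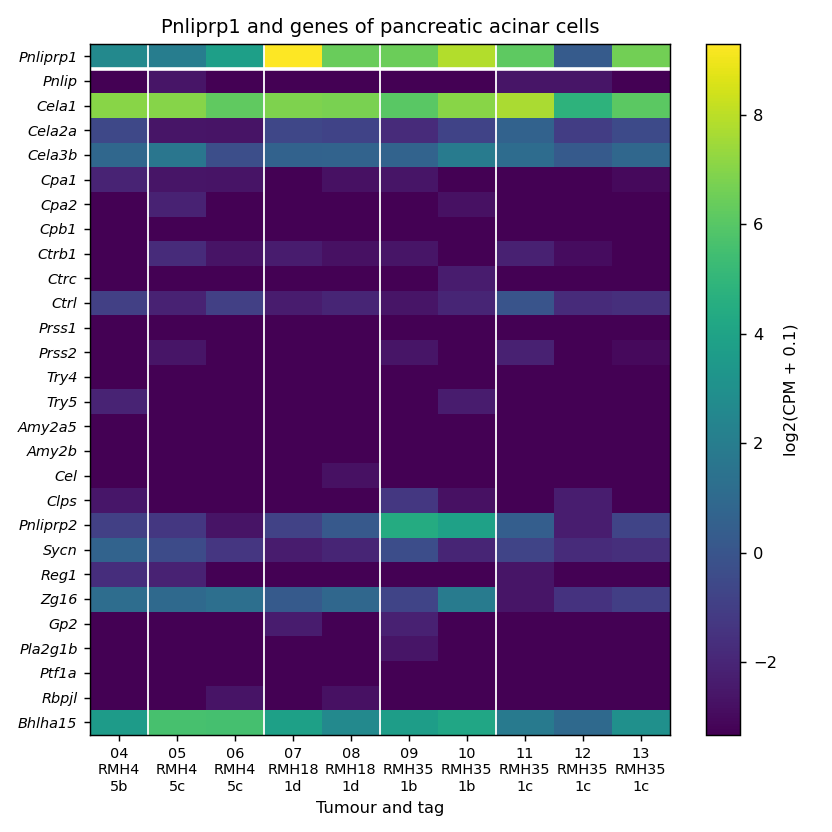
Pnliprp1 (top row), Pnlip and 26 genes of pancreatic acinar cells (rows) in 10 tumours (columns, with tags), coloured by log2(CPM + 0.1). Pnliprp1 is bright in tumour 07 at 627 CPM, where most digestive enzyme genes are at the dark end of the scale, and Pnliprp2 is bright in tumours 09 and 10 at 21.7 and 14.9 CPM.

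The spread of a gene between tumours was measured as the SD of its log2 CPM. An SD above 1 was met by 645 of the 12462 genes that passed the filter on low counts, or 5.18%, and by 1 of the 7 lipases that passed it, Pnliprp1. Pnliprp1 had the fifth largest SD, 2.83, and the ninth largest biological coefficient of variation, 1.27, which is the relative SD beyond counting error. Among the genes just above it in SD were Cyp2c39 and Saa2 at 3.18 and 2.87, and just below stood Fos, Saa1 and Mup20 at 2.74, 2.48 and 2.48. Without tumours 04 to 07 its SD was 2.67 over 6 tumours.

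The other lipases lay nearer to the bulk of genes by this measure. Their SDs were 0.77 for Lipc, 0.56 for Lipg, 0.53 for Pnpla2, 0.52 for Lipe, 0.43 for Mgll and 0.41 for Lpl, against a median of 0.33 over all 12462 genes. Lipc was exceeded by 10.4% of genes and Lpl by 35.0%. Single tumours set part of this. Without tumour 04 the SD of Lpl was 0.26, and without tumour 05 that of Lipe was 0.33. Without tumours 04 to 07 the SD of Lipg was 0.27 and that of Lpl 0.21.

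**Figure D3:**
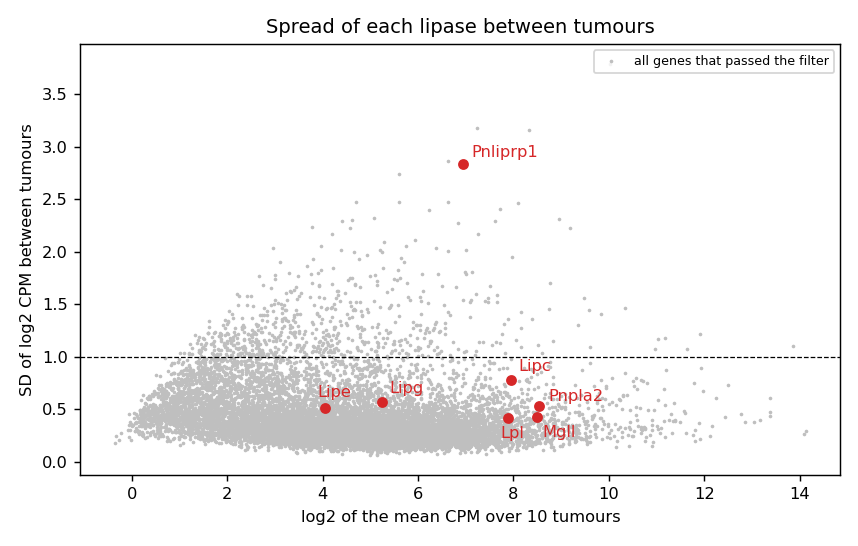
SD of log2 CPM between the 10 tumours (y) against the log2 of the mean CPM (x) for every gene that passed the filter (grey points), with the 7 lipases that passed it in red. The dashed line marks an SD of 1, and Pnliprp1 at 2.83 stands far above it while the other 6 lie between 0.41 and 0.77.

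To compare genes with each other, mean CPM was divided by the length of the canonical transcript in kilobases. Pnpla2 was highest at 181 CPM per kb ± 71.6 (SD, n = 10), then Lipc at 129 ± 87.4, Mgll at 97.6 ± 28.5, Pnliprp1 at 75.5 ± 118, Lpl at 57.4 ± 19.5, Lipg at 10.0 ± 3.46 and Lipe at 4.22 ± 1.85 CPM per kb. Lpl was above Lipg in 10 of 10 tumours with no overlap of their ranges. All other neighbours in this order among the 7 overlapped in their ranges. The place of Pnliprp1 above Lpl rests on tumour 07. Pnliprp1 was the higher of these in 4 of 10 tumours, and without tumour 07 the means were 40.9 CPM per kb for Pnliprp1 and 56.1 for Lpl. No other single tumour changed the order, a check chosen after seeing the data. With all annotated exons as the length and all tumours, Lipc came before Pnpla2 and the other places were as given.

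Lpl (ENSMUSG00000015568, chr8:68880555-68906932) encodes the enzyme that strips triglyceride from lipoproteins. It was at 439 CPM in tumour 04, 248 in 05, 206 in 06, 282 in 07, 226 in 08, 240 in 09, 185 in 10, 175 in 11, 193 in 12 and 166 CPM in 13. Tumour 04 stood highest, and tumours 10 to 13 were the lowest 4.

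Lipc (ENSMUSG00000032207, chr9:70798128-70952221), hepatic lipase, was at 145 CPM in tumour 04, 218 in 05, 178 in 06, 685 in 07, 255 in 08, 98.2 in 09, 335 in 10, 252 in 11, 151 in 12 and 167 CPM in 13. Tumours 07 and 10 were highest, which were also the highest 2 for Pnliprp1. Within RMH35_1b, tumour 10 was 3.41-fold above tumour 09.

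Lipg (ENSMUSG00000053846), endothelial lipase, was lowest in the tumours of the RMH4 tags. It was at 27.5 CPM in tumour 04, 17.99 in 05, 20.03 in 06, 40.5 in 07, 40.6 in 08, 35.5 in 09, 54.6 in 10, 48.6 in 11, 55.6 in 12 and 39.6 CPM in 13. The 3 tumours of the RMH4 tags were below all 7 others. This split was noticed in the values, and how many of all genes show such a split was not counted.

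The enzymes of stored fat varied over about 2 to 4 times. Pnpla2 (ENSMUSG00000025509, chr7:141455188-141460743) was at 364 CPM in tumour 04, 652 in 05, 453 in 06, 215 in 07, 317 in 08, 264 in 09, 594 in 10, 271 in 11, 266 in 12 and 338 CPM in 13. Tumours 05 and 10 were highest and tumour 07, the highest for Pnliprp1, was lowest.

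Lipe (ENSMUSG00000003123, chr7:25379527-25398486) was at 14.1 CPM in tumour 04, 35.2 in 05, 19.4 in 06, 12.5 in 07, 13.3 in 08, 10.0 in 09, 18.9 in 10, 13.8 in 11, 17.2 in 12 and 11.1 CPM in 13. Only tumour 05 was above 20 CPM. Mgll (ENSMUSG00000033174, chr6:88724412-88828360) was at 358 CPM in tumour 04, 229 in 05, 231 in 06, 500 in 07, 451 in 08, 271 in 09, 519 in 10, 297 in 11, 365 in 12 and 365 CPM in 13. The pair 05 and 06 was lowest, where Pnpla2 was high.

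Differences between tags were tested for the 6 lipases other than Pnliprp1 and Pnlip with edgeR's quasi-likelihood F test, adjusted over all 12462 genes by Benjamini-Hochberg. None passed an adjusted p of 0.05, and 53 genes did, or 0.425%. Lipg had an adjusted p of 0.123 (unadjusted 0.0034) and Lpl one of 0.154 (unadjusted 0.0059) in this test, and these 2 were the only ones of the 6 with an unadjusted p under 0.05, which 14.9% of all genes tested had. The adjusted p of the others was between 0.378 and 0.460. DESeq2's likelihood ratio test, which called 1207 genes (9.69%), called Lipg at an adjusted p of 0.0013 and Lpl at 0.0025. In this test 6 of the 6 had an unadjusted p under 0.05, as did 19.5% of all genes. Without tumour 04, the single tumour of its tag, the unadjusted edgeR p of Lpl was 0.158 and the adjusted p 0.454. Without the filter on low counts edgeR called Lipg at an adjusted p of 0.026, among 973 genes called (3.94%), and again 6 of the 6 had an unadjusted p under 0.05, against 13.8% of genes. By tag family the 2 lipases with an unadjusted edgeR p under 0.05 were Lipc and Lipg, against 14% of genes. Leaving out tumours 04 to 07 removes both RMH4 tags, which hold the 3 lowest Lipg tumours and the highest Lpl tumour. Of the 3 tags left, RMH18_1d keeps a single tumour. This setting therefore cannot check the differences of Lipg and Lpl between tags. The number of genes called over all also moved with single tumours, from 0 without tumour 11 to 167 without tumour 10.

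Whether lipases moved together was examined over the 28 pairs of the 8. None passed Benjamini-Hochberg adjustment over the 28 permutation tests, and 2 had an unadjusted p of r under 0.05. These were Lipe with Pnpla2 and Lipg with Mgll. By rho 4 pairs did, these 2 and Pnliprp1 with Mgll and with Pnlip. The 7 pairs with Pnlip rest on its 4 counts.

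Lipe and Pnpla2, consecutive enzymes of lipolysis, had r = 0.78 (permutation p = 0.0056, adjusted 0.156) and rho = 0.75 (p = 0.017, adjusted 0.331) over 10 tumours. Without tumours 05 and 09 r was 0.61 (exact permutation p = 0.107), and with tag means taken off it was 0.67 (exact permutation p = 0.396 over 48 orders). Without tumour 12 the relation had r = 0.84 and an adjusted permutation p of 0.045, the only pair to pass in any setting that was run. Lipg and Mgll had r = 0.71 (permutation p = 0.023, adjusted 0.324) and rho = 0.68 (permutation p = 0.035, adjusted 0.331). Without tumours 05 and 06, the lowest in Lipg, r was 0.27 (exact permutation p = 0.525). Without tumour 05 alone r was 0.59, and without tumour 06 alone it was 0.61. With tag means taken off it was 0.69 (exact permutation p = 0.583 over 48 orders).

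Pnpla2 and Mgll, the enzymes at either end of the lipolysis sequence, had r = -0.26 over all 10 tumours (permutation p = 0.455, adjusted 0.797) and rho = -0.25 (permutation p = 0.490, adjusted 0.868). After the tag means were taken off, r was 0.73 (exact permutation p = 0.646 over 48 orders), and without tumours 05 and 06 it was 0.38 (exact permutation p = 0.371). The sign of this relation therefore depended on the comparison made. Pnliprp1 and Lipc had r = 0.58 (permutation p = 0.074, adjusted 0.403) and rho = 0.50 (permutation p = 0.144, adjusted 0.503), and without tumours 05 and 12 r was 0.68 (exact permutation p = 0.064). It was 0.34 without tumour 07, the highest in both genes, 0.37 without tumours 04 to 07, 0.78 without tumour 09 and 0.49 with tag means taken off (exact permutation p = 0.167 over 48 orders). Pnliprp1 and Mgll had r = 0.54 (permutation p = 0.113, adjusted 0.403) and rho = 0.65 (permutation p = 0.048, adjusted 0.339). Without tumours 05 and 12 this r was 0.62 (exact permutation p = 0.102), without tumours 04 to 07 it was 0.18 and with tag means taken off 0.087.

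Each lipase was then set beside 8 marker scores, the mean log2 CPM of a list of genes. In whole tumours fewer cells of a type and less RNA per cell cannot be told apart. None of the 64 relations passed adjustment, and 7 had an unadjusted permutation p of r under 0.05. The 2 strongest involved the targets of β-catenin, the driver that all these tumours carry.

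Mgll and the β-catenin target score had r = 0.82 (permutation p = 0.0048, adjusted 0.185) and rho = 0.83 (permutation p = 0.0047, adjusted 0.236). Without tumours 06 and 09 r was 0.72 (exact permutation p = 0.042), and on deviations from the tag means it was 0.71 (exact permutation p = 0.729 over 48 orders). With the median over genes as the score r was 0.48. Lipc and the same score had r = 0.78 (permutation p = 0.0058, adjusted 0.185) and rho = 0.76 (permutation p = 0.015, adjusted 0.271). Without tumours 06 and 09 r was 0.79 (exact permutation p = 0.019). On deviations from the tag means it was 0.97, with an exact permutation p of 0.021, the smallest that 48 orders within tags can give. Lipg and this score had r = 0.71 (permutation p = 0.022, adjusted 0.425) and rho = 0.68 (permutation p = 0.035, adjusted 0.413), and without tumours 06 and 09 r was 0.71 (exact permutation p = 0.048). With tag means taken off it was 0.59 (exact permutation p = 0.583 over 48 orders), and with the median over genes as the score it was 0.37.

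Lpl and the endothelial score had r = 0.63 (permutation p = 0.045, adjusted 0.432) and rho = 0.75 (permutation p = 0.017, adjusted 0.271), with r = 0.71 without tumours 07 and 09 (exact permutation p = 0.021). Lpl and the stellate and fibroblast score had r = 0.63 (permutation p = 0.049, adjusted 0.432) and rho = 0.81 (permutation p = 0.0074, adjusted 0.236), with r = 0.84 without tumours 07 and 09 (exact permutation p = 0.0054). With tag means taken off these were 0.64 (exact permutation p = 0.417 over 48 orders) and 0.72 (exact permutation p = 0.354). Tumours 10 to 13 were the lowest 4 in Lpl and in both scores.

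The remaining 2 of the 7 relations were negative and involved the macrophage score, which was lowest in tumour 05. Lipe had r = -0.72 with it (permutation p = 0.033, adjusted 0.425) and rho = -0.39 (permutation p = 0.265, adjusted 0.735), and without tumours 05 and 09 r was 0.15 (exact permutation p = 0.722). Pnpla2 had r = -0.66 (permutation p = 0.032, adjusted 0.425) and rho = -0.59 (permutation p = 0.081, adjusted 0.473), and without the same tumours r was -0.30 (exact permutation p = 0.475). Without tumours 04 to 07 r was -0.63 for Lipe and -0.73 for Pnpla2 over 6 tumours. With tag means taken off it was -0.78 for Lipe (exact permutation p = 0.354 over 48 orders) and -0.79 for Pnpla2 (exact permutation p = 0.042).

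**Figure D4:**
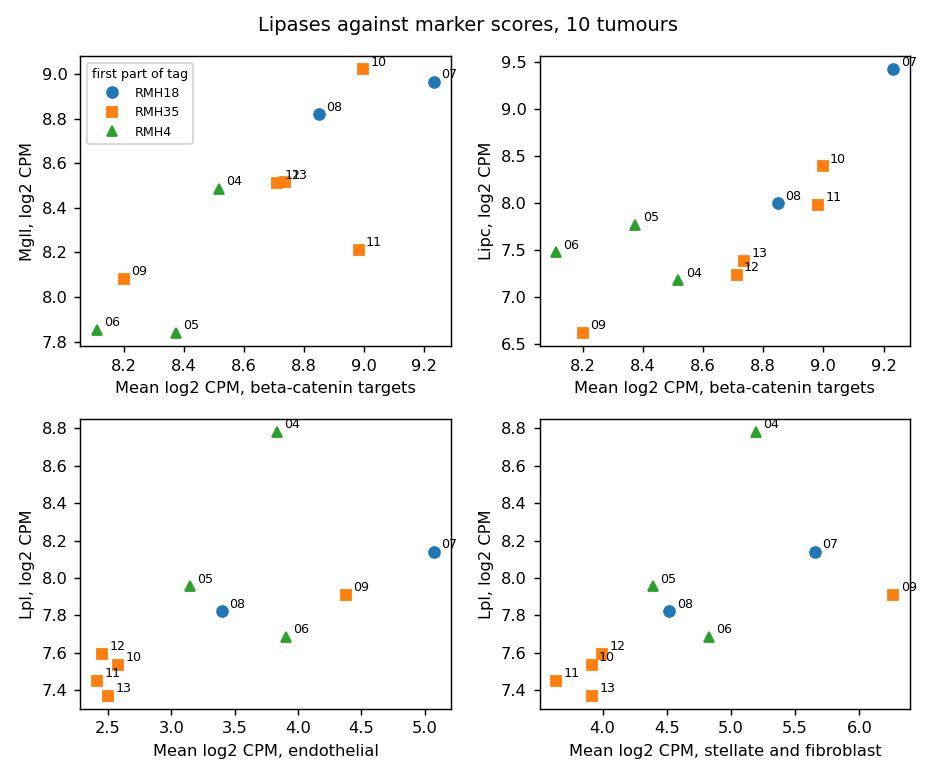
Log2 CPM of Mgll, Lipc and Lpl (y) against a marker score, the mean log2 CPM of a gene list (x), with 1 numbered point per tumour shaped by the first part of its tag. Mgll and Lipc are highest in tumours 07 and 10, which have the highest β-catenin target scores, and tumours 10 to 13 are lowest in Lpl and in the endothelial and the stellate and fibroblast scores.

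For Pnliprp1 the 8 scores gave r between -0.35 with the adipocyte list and 0.60 with the blood list, and the lowest adjusted permutation p was 0.432. Without tumours 07 and 09 the r with the blood score was 0.31 (exact permutation p = 0.444). With the β-catenin target score Pnliprp1 had r = 0.55 (permutation p = 0.103, adjusted 0.508) and rho = 0.60 (permutation p = 0.075, adjusted 0.473). Without tumours 06 and 09 this r was 0.82 (exact permutation p = 0.014). Without tumours 04 to 07 it was 0.13 over 6 tumours, and with tag means taken off it was 0.37 (exact permutation p = 0.208 over 48 orders). The genes of this list differed in sign. Over all tumours the r with Pnliprp1 was -0.53 for Glul, -0.44 for Tbx3 and -0.11 for Cyp2e1. For the other genes of the list it lay between 0.29 (Axin2) and 0.70 (Notum). Tumour 07, where Pnliprp1 and Lipc were highest, also had the highest summed blood genes (6181 CPM, against a median of 238) and the highest summed endothelial genes (556 CPM, against 197). Its Rpph1 was highest too, and its library was the shallowest. The part of these in the levels of Pnliprp1 and Lipc was not tested. In tumour 10, the next highest in both, Rpph1 was at 1.58 CPM. With the acinar pancreas score Pnliprp1 had r = 0.25 over all 10 tumours (permutation p = 0.484, adjusted 0.755) and rho = 0.16 (permutation p = 0.656, adjusted 0.826). Without tumours 10 and 12 this r was -0.53 (exact permutation p = 0.183). Without tumours 04 to 07 it was 0.82 over 6 tumours, and with tag means taken off it was 0.52. Its sign thus depended on the tumours used. Most genes of this score were under 1 CPM in every tumour, so it leans on low counts. The list's 3 genes that passed the filter had r with Pnliprp1 of 0.44 (Cela1), 0.25 (Cela3b) and 0.065 (Bhlha15) over 10 tumours. Without tumours 04 to 07 these were 0.78, 0.74 and 0.83, and with tag means taken off 0.66, 0.22 and 0.86. What lies behind these r was not tested.

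Genes whose pattern over the 10 tumours was most like that of Pnliprp1 were ranked by Pearson's r of log2 CPM among the genes that passed the filter. Highest were Car4 at 0.95, Sbspon at 0.94, Fgfrl1 at 0.93, Adamts17 at 0.91 and Traip at 0.89, and among those that followed were Msrb2, Sgtb, Mvb12b and Calml4, each at 0.88. Lowest were Cmtr2 at -0.92, Slc35e1 at -0.92, Insr at -0.88, Nmrk1 at -0.88 and Invs at -0.87. These are extremes chosen out of 12461 genes in 10 libraries of unequal depth, so they are descriptions and carry no p.

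Car4, which encodes a membrane-bound carbonic anhydrase, lay between 1.31 CPM (tumour 12) and 88.9 CPM (tumour 10), a 67.7-fold range. Sbspon lay between 0.766 CPM (tumour 05) and 21.0 CPM (tumour 07), and Calml4 between 5.03 CPM (tumour 12) and 69.4 CPM (tumour 09). These 3 had SDs of 1.75, 1.80 and 1.18, and the other 6 named here as most alike had SDs of 0.32 to 0.73. Insr, which encodes the insulin receptor, was lowest in tumour 07 at 72.5 CPM and highest in tumour 05 at 118 CPM. On deviations from the tag means the r of Car4 was 0.95 and that of Sbspon 0.98. Without tumours 04 to 07 they were 0.98 and 0.94 over 6 tumours.

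**Figure D5:**
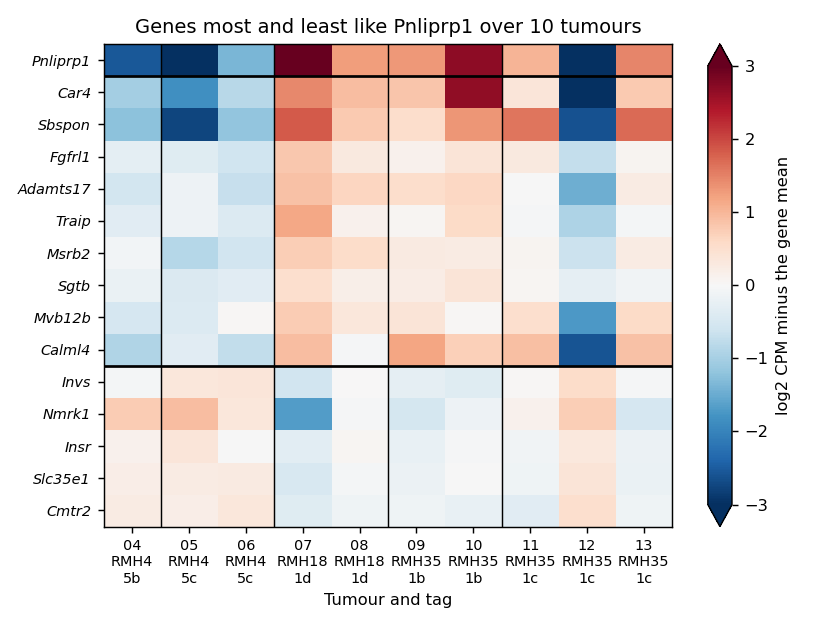
Log2 CPM minus the gene's own mean (colour, limited to 3 in either direction) in 10 tumours (columns, with tags) for Pnliprp1, 9 of the 10 genes with the highest and the 5 with the lowest Pearson's r to it (rows, divided by black lines). Pnliprp1, Car4 and Sbspon are low together in tumours 04, 05, 06 and 12, and the changes of most other genes shown are smaller.

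The partners of these lipases were read from lists. Among regulators and cofactors 1 of 15 that passed the filter had an SD above 1, against 5.18% of all genes. This was Gpihbp1, the protein that carries lipoprotein lipase across the capillary wall. Gpihbp1 was at 25.6 CPM in tumour 04, 15.1 in 05, 19.2 in 06, 53.0 in 07, 11.0 in 08, 27.3 in 09, 6.21 in 10, 3.91 in 11, 5.62 in 12 and 5.90 CPM in 13. Its lowest 4 tumours were again 10 to 13, where endothelial genes were also low. Without tumours 04 to 07 none of the 15 had an SD above 1.

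Among the inhibitors of lipoprotein lipase, Angptl4 ranged from 86.9 to 208 CPM and Angptl8 from 27.7 to 74.8 CPM. The activator Apoc2 ranged from 201 to 502 CPM and the inhibitor Apoc3 from 468 to 1326 CPM. The median SD of the list was 0.45, against 0.33 over all genes. No member passed the edgeR tag test after adjustment, with a lowest adjusted p of 0.216, and 4 of the 15 had an unadjusted p under 0.05, against 14.9% of all genes.

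Of 20 other neutral lipases and esterases that passed the filter, Pnpla3 alone had an SD above 1, a share close to the 5.18% over all genes. It had 17.7 CPM in tumour 04, 10.52 in tumour 07 and 0.910 to 8.36 CPM in the other 8. The lysosomal acid lipase Lipa was steady at 203 to 340 CPM, and the carboxylesterase Ces1d ranged from 135 CPM in tumour 09 to 664 CPM in tumour 05. The median SD was 0.46. None passed the edgeR tag test (lowest adjusted p 0.242), and 4 of the 20 had an unadjusted p under 0.05, near the 14.9% over all genes.

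Of 16 genes of lipid droplets and lipolysis, Hilpda and Plin4 had an SD above 1, against 5.18% of all genes. Plin4 was not above 1 without tumour 07 or without tumours 04 to 07, and Hsd17b13 was also above 1 when any one of tumours 04, 05, 06 and 10 to 13 was left out. Hilpda, an inhibitor of the Pnpla2 enzyme, was at 165 CPM in tumour 05, 60.6 in 06, 51.1 in 09, 21.8 in 04, 18.8 in 07, 13.5 in 08 and 4.63 to 6.52 CPM in tumours 10 to 13. Its highest tumour was also that of Pnpla2 and Lipe. G0s2, another inhibitor of that enzyme, was at 21.7 CPM in both 05 and 06 and at 33.2 to 81.5 CPM in the other 8. The coactivator Abhd5 stayed between 29.1 and 53.4 CPM. No gene of the list passed the edgeR tag test after adjustment. G0s2 came closest, at an adjusted p of 0.0645 in edgeR, and 5 of the 16 had an unadjusted p under 0.05, against 14.9% of all genes.

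In the list of uptake and secretion 2 of 16 had an SD above 1, against 5.18% of all genes. These were the fatty acid carrier Fabp4 (5.95 to 98.9 CPM) and the lipoprotein receptor Vldlr (6.65 CPM in tumour 07 to 132 CPM in tumour 05). Vldlr was not above 1 without tumour 05, without tumour 07 or without tumours 04 to 07, while Fabp4 was above 1 in each of these settings. With single tumours left out the count was 1 to 3. Among 15 transcription factors of lipid metabolism none had an SD above 1, and the median SD was 0.30. Hnf4a stayed between 614 and 897 CPM, Ppara between 61.4 and 142 CPM and Pparg between 33.7 and 69.7 CPM. In neither list did any gene pass the edgeR tag test after adjustment, and 2 of the 16 and 1 of the 15 had an unadjusted p under 0.05, no more than the 14.9% over all genes.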

How the data were processed

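Poly(A) RNA of whole liver tumours was sequenced from stranded libraries. The authors deposited raw read counts per gene for 19 libraries. Per the labels' processing notes TopHat2, HTSeq and GRCm38 were used, and counting options were not given in the sources used here. A column was used where its number matched a single sample title, which assumes that title numbers are library numbers. This held for 10 tumours, and 9 columns of per-sample values were not used. Multiply aligned reads were 45.4% to 57.9% of table entries and went to no gene, so reads shared by related lipases are left out.

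Symbols (34199 of 39179 identifiers) and lengths came from GENCODE M39, and positions and upstream sequences from RefSeq on GRCm38.p6. Counts were analysed in edgeR 4.0.16 (R 4.3.3) with filterByExpr over the 10 tumours as 1 group, TMM factors (0.927 to 1.11), log2 CPM with a prior count of 2 and the quasi-likelihood F test over tags, checked on simulated counts. The filter can drop genes that are near silent in some tumours, such as Pnliprp2. DESeq2 1.42.0 served as an alternative. Correlations used two-sided permutation tests (100000 resamples, exact for 8 or fewer tumours). Where 2 tumours were left out of a correlation, they were those farthest from the median of 1 gene of the pair or of the score. Leaving out extremes can by itself lower r. Levels and floors cover counting error only, and p-values measure the spread between tumours, of which some may share a mouse. The closest of 45 pairs of libraries differed by 0.47 log2 units (root mean square) against a counting error of 0.13, so none was a copy.

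Members and gene lists were chosen with earlier results of these data known. Named were the 8 lipases, listed genes, the 10 genes most and 5 least correlated with Pnliprp1 and the 3 on either side of it in SD, apart from a few genes that are not reported here. Alternatives were DESeq2 scaling and testing, a prior count of 0.5, no filter, the biological coefficient of variation, tag families, tag means removed, and each tumour left out.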

Additional observations from a re-analysis of the deposited data

Results flagged for a closer look

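In 59 measures over the 10 tumours (the 6 detected lipases other than Pnliprp1, 45 other named genes and 8 marker scores) the gap between the most extreme tumour and its neighbour was divided by the whole range of log2 values, and set against Dixon's 95% limit for 10 samples. Chance passes this limit in about 1 in 20 groups, but many of these genes were named for their spread or their likeness to Pnliprp1, so no number due to chance can be given for the 6 that passed. Lipe was set apart in tumour 05, with a gap of 0.474 of the range, and the macrophage score was lowest in the same tumour, with a gap of 0.483. Cd36, a fatty acid transporter, was set apart in tumour 11 (0.628). The acute phase genes Saa2 (0.560) and Saa1 (0.546) were set apart in tumour 06, and Mvb12b in tumour 12 (0.494), the tumour with the lowest Pnliprp1. Lpl in tumour 04 had a gap of 0.455 and did not pass.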

How the results depend on the processing

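No paired analysis was possible because only tumour columns could be matched to samples, so no second group shares their numbers. The count of genes with an SD above 1 was 645 and became 2066 without the filter on low counts, where Pnliprp1 ranked 12. The count of genes that differed between tags was 53 and became 973 without the filter, 1 by tag family, 1207 with DESeq2's likelihood ratio test, 91 with libraries thinned to equal depth and 2 without tumours 04 to 07 (the last 2 settings chosen after seeing the data), and 0 to 167 with single tumours left out. It was 2 without tumour 05 or 13, 17 without 06, 30 without 07, 19 without 12, 135 without 04 and 120 without 09. Of the 28 lipase pairs 0 to 1 passed adjustment with single tumours left out. The r of Mgll and Pnpla2 turned from -0.26 to 0.73 on deviations from tag means, to 0.81 without tumours 04 to 07 and to 0.037 without tumour 05 (leave-one-out range -0.67 to 0.037), and that of Pnliprp1 and Pnpla2 from -0.26 to 0.065 and 0.52 in the first 2 of these settings. The r of Pnliprp1 and the acinar pancreas score turned from 0.25 to -0.18 with the median over genes as the score. The cause was not tested. Pnliprp1 ranked 3 to 9 in SD with single tumours left out. The mean of Pnliprp1 went from 122 to 66.2 CPM without tumour 07. Pnlip at 4 counts is at the limit of this depth.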

Other observations

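Cidea, a lipid droplet gene, was at 10.2 CPM in tumour 04, 6.38 in 05 and 0.126 to 1.59 CPM in the other 8, and did not pass the filter on low counts. Plin4 had 41.4, 49.6 and 41.3 CPM in tumours 04, 05 and 06, against 3.78 to 30.0 CPM elsewhere. Both were noticed in the values and carry no test.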
